A study of Mus musculus and Rattus norvegicus with 12 samples.

Results

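The receptor tyrosine kinases Pdgfra and Kit and 4 genes for their ligands, Pdgfa, Pdgfb, Pdgfc and Kitl, were followed across mouse and rat cell lines derived from blastocysts. The members were chosen by symbol, and all 6 were found among 24411 mouse symbols and among 17315 rat symbols, where the ligand of Kit is listed as Kitlg. Messenger and other RNA, depleted of ribosomal RNA, was sequenced in a strand-specific way from lines that were each derived separately. The groups were 3 mouse pXEN lines (pXEN2, pXEN4 and pXEN6, at passages 17 to 21), 3 mouse XEN lines (XEN1, XEN2 and XEN5, passages 9 to 21), 2 mouse ES lines (ES2 and ES3, passages 14 to 16) and 4 rat XENP lines (CX1, MAX2, MAX3 and MAX8, passages 10 to 40). All mouse lines came from ICR mice, CX1 and MAX8 came from WKY rats, and MAX2 and MAX3 came from F344 rats. By the labels, pXEN2, XEN2, XEN5, ES2, CX1 and MAX3 are male. The female lines are pXEN4, pXEN6, XEN1, ES3, MAX2 and MAX8. XEN lines are extraembryonic endoderm stem cell lines, here kept in serum on mouse embryo fibroblasts, and ES lines are embryonic stem cells, kept in serum with LIF and the inhibitor mix called 2i. The pXEN and rat XENP lines were both kept under another published condition. Each mouse group had its own culture, so cell type and culture cannot be told apart.

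Pdgfra and Kit belong to the class III receptor tyrosine kinases, which pair up when a dimeric ligand binds and then phosphorylate each other and recruit adaptors. PDGF-A and PDGF-C, encoded by Pdgfa and Pdgfc, are ligands of the alpha receptor, PDGF-B binds both PDGF receptors, and Kitl encodes stem cell factor, the ligand of Kit. In the mouse blastocyst, Pdgfra is a known marker of the primitive endoderm, the lineage that XEN lines represent, while Pdgfa is made by the epiblast, the source of ES lines.

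Both receptors lie on mouse chromosome 5 in the same orientation, with 376.7 kb between the end of Pdgfra (chr5:75152292-75198215, plus strand, GRCm38) and the start of Kit (chr5:75574916-75656722, plus strand). Pdgfa lies farther along the same chromosome (chr5:138976014-138997370, minus strand), and Pdgfb (chr15:79995874-80014977, minus strand), Pdgfc (chr3:81036416-81214040, plus strand) and Kitl (chr10:100015630-100100416, plus strand) lie elsewhere. These spans come from the GENCODE vM21 annotation and cover exons and introns.

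Stretches before the start of 3 members are printed, of both receptors because they were higher in the same lines than in ES lines, and of Pdgfc because it was called between pXEN and XEN lines. They are RefSeq sequences of build GRCm38.p6, read 5′ to 3′, and end before the first GENCODE exon of the gene.
Pdgfra, chr5:75152001-75152250, plus strand: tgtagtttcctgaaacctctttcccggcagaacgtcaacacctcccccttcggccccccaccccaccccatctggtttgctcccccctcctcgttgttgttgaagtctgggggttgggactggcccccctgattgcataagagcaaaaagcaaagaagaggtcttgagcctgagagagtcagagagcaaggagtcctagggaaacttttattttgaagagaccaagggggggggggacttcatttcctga
Kit, chr5:75574737-75574915, plus strand: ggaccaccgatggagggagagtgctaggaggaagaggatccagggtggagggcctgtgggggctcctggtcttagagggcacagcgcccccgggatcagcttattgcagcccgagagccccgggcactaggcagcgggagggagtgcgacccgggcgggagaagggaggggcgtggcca
Pdgfc, chr3:81036166-81036415, plus strand: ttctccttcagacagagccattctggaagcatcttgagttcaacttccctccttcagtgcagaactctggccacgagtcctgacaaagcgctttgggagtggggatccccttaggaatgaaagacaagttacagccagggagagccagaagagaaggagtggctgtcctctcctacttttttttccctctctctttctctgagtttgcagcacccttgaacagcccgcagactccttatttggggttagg
Over the full window of 250 bases before the RefSeq start, Pdgfra held 4 CpG and was 54.4% G or C, against a median of 6 CpG and 52.4% over 32851 mouse promoter windows. Kit held 17 CpG at 70.8% and Pdgfc 3 at 50.8%, so the receptors, which were high in the same lines, have promoters of different base composition. The letters AGATAA, taken also with a final G, an initial T or both, are bound by GATA factors and were in 26.5% of all windows and in none of those of the 5 members with a window (Pdgfra, Kit, Pdgfa, Pdgfc and Kitl). ACAAT, the core of sites bound by SOX factors, was in 27.7% of all windows and, of these members, in 1 window of Pdgfa. TATAAA, the core of a TATA box, was in 12.4% and, of these members, in that of Kitl. All motifs were sought on both strands, no matches overlapped, none of them falls in the printed stretches, which therefore hold no capitals, and a missing match says only that these letters are not in this window.

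Gene counts in a library ranged between 2661691 and 3483069 for mouse and between 1047535 and 1242937 for rat. Levels are given in CPM, a gene's counts scaled to the total of its library, with TMM factors among the mouse lines and without them among the rat lines. The sums of endoderm and ES markers set the ES lines apart from the other mouse lines. Counts of 10 of 10 extraembryonic endoderm genes were found in every pXEN and XEN line, and of 7 or 8 in the ES lines. Their sums were 9370 to 11365 CPM in pXEN lines, 7488 to 16709.5 CPM in XEN lines and 79.0 to 125 CPM in ES lines. The 8 ES genes summed to 28.4 to 63.8 CPM in pXEN lines, 0.278 to 0.528 CPM in XEN lines and 4495 to 4582 CPM in ES lines. Of 14 fibroblast genes, 2 to 5 had counts in pXEN lines (8.88 to 14.2 CPM in sum), all 14 in XEN lines (249 to 315 CPM) and 7 in ES lines (20.7 to 30.8 CPM). Col1a2, Col3a1, Col5a2, Postn, Dcn, Lum, Prrx1, Loxl1 and Thy1 were at 0 in all pXEN lines. In such bulk samples, fewer cells of a type and less RNA per cell cannot be told apart.

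Pdgfra had 70.7, 69.2 and 55.1 CPM in pXEN2, pXEN4 and pXEN6 and 83.4, 67.0 and 53.4 CPM in XEN1, XEN2 and XEN5, against 1.23 and 0.390 CPM in ES2 and ES3. The lines of pXEN and XEN lay in the same range, and every one of them was far above both ES lines, which gave only 4 counts together. The mean was 65.0 ± 8.62 CPM in pXEN lines and 67.9 ± 15.0 CPM in XEN lines (SD, n = 3 each), and 0.812 ± 0.597 CPM in ES lines (SD, n = 2). In the quasi-likelihood test of edgeR, with p-values adjusted over 10895 genes by the method of Benjamini and Hochberg, Pdgfra was 77.3-fold higher in pXEN than in ES lines (log2 fold change 6.27 ± 0.47, SE, adjusted p = 5.59e-06). It was 80.6-fold higher in XEN than in ES lines (log2 6.33 ± 0.47, SE, adjusted p = 5.19e-06). The ES lines are shared by these comparisons. Between pXEN and XEN lines the log2 fold change was -0.06, with a 95% interval from -0.60 to 0.48 (adjusted p = 0.967). Pdgfra is also a gene of fibroblasts. Its 55.1 to 70.7 CPM in pXEN lines stood beside fibroblast collagen genes at or near 0. Fbn1 (2.30 to 10.8 CPM) and Pdgfrb (3.29 to 7.46 CPM), of the same fibroblast list, were present there. In XEN lines all 14 fibroblast genes had counts (249 to 315 CPM in sum). The part of fibroblasts in the level of Pdgfra was not tested.

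Kit, the receptor of stem cell factor, was likewise higher in pXEN and XEN lines than in ES lines. It stood at 208, 575 and 365 CPM in pXEN2, pXEN4 and pXEN6, at 258, 251 and 223 CPM in XEN1, XEN2 and XEN5, and at 20.6 and 40.1 CPM in ES2 and ES3. The pXEN lines spread widely, with pXEN2 below all 3 XEN lines and pXEN4 and pXEN6 above them, while the XEN lines lay close together. In each mouse group the male lines (pXEN2, XEN2, XEN5 and ES2) lay below the female lines for Kit. The sexes are not balanced between pXEN and XEN lines, and the part of sex in the level of Kit was not tested. Neither group overlapped the ES lines. Kit was 12.6-fold higher in pXEN than in ES lines (log2 3.65 ± 0.46, SE, adjusted p = 0.000223) and 8.02-fold higher in XEN than in ES lines (log2 3.00 ± 0.45, SE, adjusted p = 0.000646). The pXEN lines did not differ from XEN lines beyond the spread between lines (383 ± 184 CPM against 244 ± 18.6 CPM, SD, n = 3 each, log2 0.65 with a 95% interval from -0.11 to 1.41, adjusted p = 0.430). Unlike Pdgfra, Kit was not near 0 in ES lines, which gave 50 and 103 counts. Kit also marks blood progenitors and mast cells. Ptprc, the pan-leukocyte gene, and Cpa3, a mast cell protease, were at 0 in all 12 lines apart from 1 count of Ptprc in XEN5. They belong to a list of 9 genes of blood and endothelium, of which others were present. Cd34 summed to 19 counts over the ES lines, 9 over the XEN lines and 0 over the pXEN lines. Gata1 gave 11 counts over the ES lines, and Tal1 gave 4 there and 1 over the pXEN lines. Cdh5 and Tek were abundant in pXEN and XEN lines. The part of blood cells in the level of Kit was not tested.

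Per kb of exon, which allows genes to be compared, Kit stood at 42.9 ± 20.6 CPM per kb in pXEN lines and 27.4 ± 2.09 in XEN lines, and Pdgfra at 6.49 ± 0.860 in pXEN lines and 6.78 ± 1.50 in XEN lines (SD, n = 3 each). Kit was thus the more abundant receptor in each of these lines. Without correction for length, the count of Kit divided by that of Pdgfra was 2.94, 8.31 and 6.63 in pXEN2, pXEN4 and pXEN6 and 3.09, 3.75 and 4.18 in XEN1, XEN2 and XEN5.

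**Figure D1:**
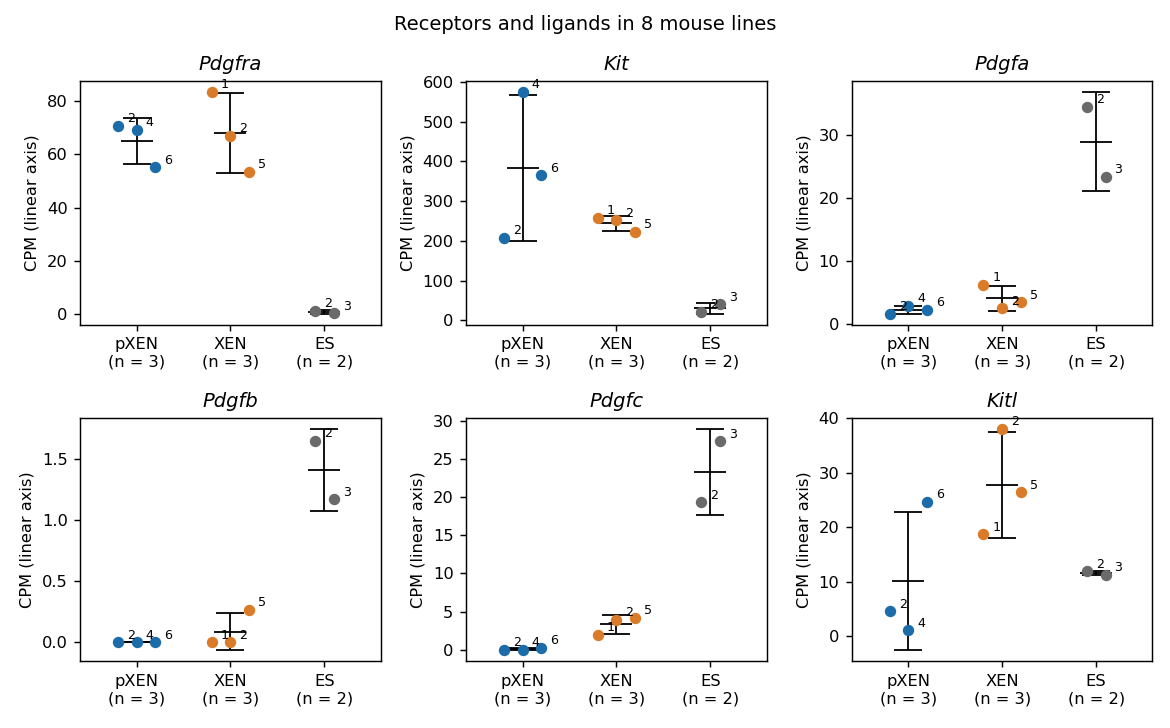
CPM of the 6 genes in 8 mouse lines, on linear axes that differ between panels. Points are lines, numbered as in their names, and bars give the group mean and SD (the SD of Kitl in pXEN lines reaches below 0). Pdgfra and Kit are high in pXEN and XEN lines, Pdgfa and Pdgfc are high in ES lines, Pdgfb is at 4 and 3 counts there, and pXEN6 stands above the other pXEN lines for Kitl.

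Among the ligands, Pdgfa was lower in the lines that carried Pdgfra. It had 1.65, 2.85 and 2.30 CPM in pXEN2, pXEN4 and pXEN6 (5 to 10 counts) and 6.23, 2.50 and 3.43 CPM in XEN1, XEN2 and XEN5 (9 to 16 counts), against 34.5 and 23.4 CPM in ES2 and ES3 (84 and 60 counts). The pXEN and XEN lines overlapped each other, and neither overlapped the ES lines. Pdgfa was 12.5-fold lower in pXEN than in ES lines (log2 -3.64 ± 0.46, SE, adjusted p = 0.000146) and 7.25-fold lower in XEN than in ES lines (log2 -2.86 ± 0.44, SE, adjusted p = 0.000558). The difference of pXEN from XEN lines was within the spread of lines at this depth (log2 -0.79, 95% interval from -1.80 to 0.22, adjusted p = 0.487).

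Pdgfc, whose product is secreted in a latent form that proteases activate, was the only one of the 5 tested members called between pXEN and XEN lines. It had 0, 0 and 1 counts in pXEN2, pXEN4 and pXEN6, 5, 14 and 16 counts in XEN1, XEN2 and XEN5, and 47 and 70 counts in ES2 and ES3. These are levels of up to 0.287 CPM in pXEN lines, 1.95 to 4.23 CPM in XEN lines and 19.3 to 27.3 CPM in ES lines, 3 ranges that do not overlap. Pdgfc was lower in pXEN than in XEN lines (1 count against 35, adjusted p = 0.00733), and with the counts scaled to library size the ratio of XEN over pXEN lines was 35.3, with a counting interval from 5.93 to 1434. It was also lower in pXEN than in ES lines (1 count against 117, adjusted p = 3.19e-05, ratio of ES over pXEN lines 235, counting interval from 41.4 to 9358). In XEN lines it was 6.75-fold lower than in ES lines (log2 -2.75 ± 0.49, SE, adjusted p = 0.00139). Fibroblast genes moved with the difference of pXEN from XEN lines, at 8.88 to 14.2 CPM in sum in pXEN lines against 249 to 315 CPM in XEN lines, and their part in it was not tested.

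Pdgfb, the ligand that binds both PDGF receptors, was close to the limit of detection in every group. It had no count in the 3 pXEN lines, which allows a group level of up to 0.299 CPM, 1 count in XEN5 and none in the other XEN lines, and 4 and 3 counts in ES2 and ES3 (1.41 ± 0.336 CPM, SD, n = 2). Pdgfb was at least 4.69-fold lower in pXEN than in ES lines when the floor of 3 counts is taken over the pXEN group and the 7 ES counts are taken as exact. The counting interval of the ratio of ES over pXEN lines, which covers both groups' counts, started at 2.89. The XEN lines gave 1 count against 7 in ES lines, a ratio of ES over XEN lines of 13.9 with a counting interval from 1.79 to 628. The gene was removed by the filter on low counts and has no test, and these floors and intervals cover counting error only.

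Kitl, the gene for the ligand of Kit, varied widely among pXEN lines. It had 4.61, 1.14 and 24.7 CPM in pXEN2, pXEN4 and pXEN6 (14, 4 and 86 counts), 18.7, 38.1 and 26.4 CPM in XEN1, XEN2 and XEN5, and 11.9 and 11.3 CPM in ES2 and ES3. The pXEN6 line lay among the XEN lines, while pXEN2 and pXEN4 lay below both ES lines, and all 3 XEN lines lay above both ES lines. No comparison passed the test over all 8 lines, with a log2 fold change of -1.45 for pXEN against XEN lines (95% interval from -3.33 to 0.44, adjusted p = 0.486), -0.19 for pXEN against ES lines (from -2.37 to 2.00, adjusted p = 0.900) and 1.26 for XEN against ES lines (from -0.92 to 3.44, adjusted p = 0.327). Without pXEN6, Kitl was lower in pXEN than in XEN lines (log2 -3.29, adjusted p = 0.0109) and lower in pXEN than in ES lines (log2 -2.03, adjusted p = 0.0239). With only XEN and ES lines fitted, it was higher in XEN lines (log2 1.26, adjusted p = 0.0262). Fibroblast genes were high in XEN lines, as given for Pdgfc. In sum they were low in pXEN lines, at 8.88, 14.2 and 11.5 CPM in pXEN2, pXEN4 and pXEN6. Of the 14 genes, 3, 2 and 5 had counts in these lines, the most in pXEN6. Their part in the level of Kitl was not tested.

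Of the 5 members tested, 1 was called between pXEN and XEN lines, where 4.55% of all tested genes were called (0.918% higher and 3.63% lower in pXEN lines). In pXEN against ES lines 4 of the 5 were called, 2 higher and 2 lower, where 35.9% of all tested genes were called (18.2% higher and 17.8% lower). In XEN against ES lines the same 4 members were called in the same directions, where 38.4% of all tested genes were called (20.7% higher and 17.8% lower). Of all 6 members, the lines of pXEN and XEN did not overlap for 1, those of pXEN and ES for 5 and those of XEN and ES for 6, beside 19.8%, 62.8% and 63.3% of tested genes in these comparisons.

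**Figure D2:**
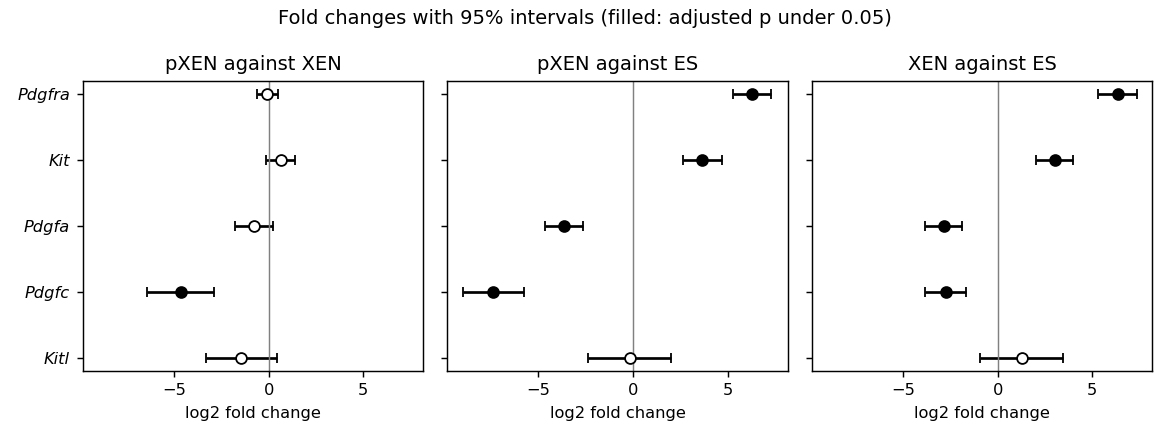
Log2 fold changes of the 5 tested members in 3 comparisons, with 95% intervals from edgeR's quasi-likelihood test; filled points have an adjusted p under 0.05. Pdgfra and Kit lie right of 0, and Pdgfa and Pdgfc left of it, against ES lines, and Pdgfc alone is called between pXEN and XEN lines.

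Other members of the PDGF and class III receptor families were few and low. Of 8 such genes, 3 passed the filter on low counts, 0 of them called between pXEN and XEN lines by edgeR's test (1 at an unadjusted p under 0.05, which 15.2% of all tested genes had, and 0 by DESeq2), 1 higher in pXEN than in ES lines and 3 higher in XEN than in ES lines (18.2% and 20.7% of all tested genes were higher in these comparisons). Pdgfd, a further PDGF ligand that acts mainly on the beta receptor, had 29, 21 and 6 counts in pXEN2, pXEN4 and pXEN6 and 17, 12 and 13 counts in XEN1, XEN2 and XEN5, against 1 and 0 in ES2 and ES3. No ES line reached any pXEN or XEN line, and the call was made for pXEN lines (adjusted p = 0.0101) and XEN lines (adjusted p = 0.0167). It was lost for both without ES3 (adjusted p = 0.0785 and 0.109). Pdgfd thus took the opposite direction to Pdgfa and Pdgfc. Pdgfrb, the beta receptor, had 3.29, 3.42 and 7.46 CPM in pXEN lines, 12.2 to 14.5 CPM in XEN lines and 2.73 and 3.70 CPM in ES lines. It is also a fibroblast marker, and was higher in XEN than in ES lines (4.08-fold, adjusted p = 0.00835), a call lost without ES3 (adjusted p = 0.0679). Csf1, the ligand of the related receptor Csf1r, was called higher in XEN than in ES lines (20.3 ± 8.24 CPM, n = 3, against 0.985 ± 0.812 CPM, n = 2, SD, adjusted p = 0.0488), but 10 of 16 alternative settings lost the call (adjusted p up to 0.249), 6 of which leave out pXEN2, XEN1, XEN2, XEN5, ES2 or ES3. Flt3, a further class III receptor gene, had no count in any pXEN or XEN line.

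PDGF chains and stem cell factor are cut by proteases before or after release, and other proteins hold or clear them. Of 13 genes listed for these roles, 10 were tested. Against ES lines, pXEN lines had 7 of these higher and 2 lower, and XEN lines had 7 higher and 1 lower. Of all tested genes, 18.2% were higher and 17.8% lower in pXEN lines, and 20.7% and 17.8% in XEN lines. The median log2 fold change was 1.88 for pXEN and 1.54 for XEN lines, beside -0.03 and 0.00 over all tested genes. Plat, the tissue plasminogen activator, which activates latent PDGF-C, had 141, 162 and 196 CPM in pXEN2, pXEN4 and pXEN6 and 138, 104 and 143 CPM in XEN1, XEN2 and XEN5, against 0.822 and 1.56 CPM in ES2 and ES3. The ES lines gave 6 counts in all, and Plat was 134-fold higher in pXEN lines (adjusted p = 1.65e-06) and 104-fold higher in XEN lines (adjusted p = 1.84e-06). The activator of PDGF-C was thus high in the lines where Pdgfc itself was low. Sparc, a matrix protein that binds PDGF chains, was 38.1-fold higher in pXEN than in ES lines (adjusted p = 2e-05) and 34.0-fold higher in XEN than in ES lines (adjusted p = 2.48e-05). It is also one of the endoderm markers.

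Furin, which cuts PDGF precursors and was singled out after its values were seen, was higher in pXEN than in ES lines (77.9 ± 18.8 CPM, n = 3, against 14.2 ± 11.3 CPM, n = 2, SD, 5.46-fold, adjusted p = 0.00679). Pcsk6, a protease related to Furin, went the other way, with 1, 0 and 0 counts in pXEN2, pXEN4 and pXEN6, 6, 12 and 14 counts in XEN lines and 45 and 107 counts in ES lines. It was lower in pXEN than in XEN lines (adjusted p = 0.0107), lower in pXEN than in ES lines (adjusted p = 2.55e-05) and lower in XEN than in ES lines (9.41-fold, adjusted p = 0.00062). Between pXEN and XEN lines the list median was 0.08, beside 0.00 over all tested genes. In that comparison 3 of the 10 genes were called, all lower in pXEN lines, where 3.63% of all tested genes were called lower. Besides Pcsk6 these were Lrp1, an endocytic receptor that interacts with PDGF receptors (2.09 ± 1.30 against 14.7 ± 5.55 CPM, adjusted p = 0.00886), and Nrp1, a co-receptor (5.79 ± 3.17 against 21.0 ± 6.76 CPM, SD, n = 3 each, adjusted p = 0.0349). The call of Nrp1 was lost in 8 alternatives, 6 of which leave out 1 line (pXEN2, pXEN4, XEN2, XEN5, ES2 or ES3), with adjusted p up to 0.120. Against ES lines Nrp1 was higher, 13.2-fold in pXEN lines (adjusted p = 0.00478) and 47.9-fold in XEN lines (adjusted p = 0.000314), and Lrp1 was 8.32-fold lower in pXEN lines (adjusted p = 0.00121). The fibroblast genes given for Pdgfc moved with these differences of pXEN from XEN lines too, and their part was not tested.

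Of 38 listed adaptors and enzymes that receive the receptors' signal, 37 were tested. Between pXEN and XEN lines 0 were called by edgeR's test and 5 had an unadjusted p under 0.05, beside 4.55% and 15.2% of all tested genes. DESeq2 called 1, Nras, higher in pXEN lines (adjusted p = 0.0267). Their median log2 fold change in that comparison was 0.00. Against ES lines 11 were higher and 4 lower in pXEN lines (median 0.43), and 11 were higher and 3 lower in XEN lines (median 0.49). Counted either way, these are near the shares over all tested genes, of which 35.9% and 38.4% were called in these comparisons. By direction, 18.2% and 20.7% of all tested genes were higher, and 17.8% were lower in each. Lyn, a Src-family kinase known to act downstream of Kit in mast cells, had 53.6, 48.4 and 35.6 CPM in pXEN2, pXEN4 and pXEN6 and 54.9, 42.3 and 47.8 CPM in XEN1, XEN2 and XEN5, against 1.64 and 3.12 CPM in ES2 and ES3. It was 18.8-fold higher in pXEN lines (adjusted p = 1.93e-05) and 19.8-fold higher in XEN lines (adjusted p = 1.89e-05). Akt1, a kinase of the PI3K branch, was 6.70-fold higher in pXEN lines (71.1 ± 16.2 CPM, n = 3, against 10.6 ± 2.15 CPM, n = 2, SD, adjusted p = 0.000352) and 5.61-fold higher in XEN lines (adjusted p = 0.00066). Fyn, a relative of Lyn, went the other way in pXEN lines (2.43 ± 3.13 CPM, n = 3, against 12.6 ± 1.89 CPM in ES lines, n = 2, SD, adjusted p = 0.0424). Its call was lost in 7 alternatives, 5 of which leave out pXEN2, pXEN4, XEN5, ES2 or ES3 (adjusted p up to 0.171).

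Gab1, a docking protein for several receptor tyrosine kinases, had 62.8, 56.1 and 10.6 CPM in pXEN2, pXEN4 and pXEN6, 46.4, 83.4 and 51.5 CPM in XEN1, XEN2 and XEN5, and 244 and 253 CPM in ES2 and ES3. It was lower in pXEN than in ES lines (5.75-fold, adjusted p = 0.0109) and lower in XEN than in ES lines (4.10-fold, adjusted p = 0.0254), although the calls were lost without ES2 or ES3 and, for XEN lines, without XEN1 or XEN5 as well (adjusted p up to 0.102). Gab2, which serves Kit in mast cells, was higher in XEN than in ES lines (5.82 ± 3.74 CPM, n = 3, against 0.195 ± 0.276 CPM, n = 2, SD, adjusted p = 0.00744), a call lost without ES2 (adjusted p = 0.0663). So the 2 docking proteins took opposite directions in XEN against ES lines. Nras, which carries the signal into the MAP kinase branch, was lower in XEN than in ES lines (34.1 ± 0.226 CPM, n = 3, against 69.9 ± 26.1 CPM, n = 2, SD, adjusted p = 0.0215), a call lost without XEN5 or ES2 (adjusted p up to 0.276).

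Of 18 listed attenuators, which switch the receptors or their signal off, 15 were tested. Of these, 1 was called, lower, in pXEN against XEN lines, where 4.55% of all tested genes were called. Against ES lines, 2 were lower in pXEN lines, and 1 was higher and 2 lower in XEN lines. Of all tested genes, 35.9% and 38.4% were called in these comparisons. Spred1, an inhibitor of the Ras branch, had 1.32, 1.99 and 0.287 CPM in pXEN2, pXEN4 and pXEN6, against 16.4, 27.5 and 19.8 CPM in XEN1, XEN2 and XEN5 and 35.0 and 16.4 CPM in ES2 and ES3. It was the attenuator called between pXEN and XEN lines, 17.3-fold lower in pXEN lines (adjusted p = 0.00137), and it was 20.8-fold lower in pXEN than in ES lines (adjusted p = 0.00017). No pXEN line reached any XEN or ES line, while XEN and ES lines overlapped. The fibroblast genes moved with the difference of pXEN from XEN lines here as well, and their part was not tested. Inpp5d, a lipid phosphatase that counters PI3K in blood cells, was 12.8-fold lower in pXEN than in ES lines (8.38 ± 5.55 CPM, n = 3, against 109 ± 41.1 CPM, n = 2, SD, adjusted p = 0.00109) and 21.7-fold lower in XEN than in ES lines (adjusted p = 0.000561). In XEN against ES lines 2 more were called. Ptpn6, a tyrosine phosphatase that acts on Kit, was 2.49-fold lower (adjusted p = 0.0118), a call lost without ES2 (adjusted p = 0.0955). Sh2b3, an inhibitory adaptor, was 2.49-fold higher (adjusted p = 0.0401), a call lost in 5 alternatives, among them without pXEN2, XEN1, XEN5 or ES2 (adjusted p up to 0.270). The list's medians were -0.04 for pXEN against XEN, -0.61 for pXEN against ES and -0.47 for XEN against ES lines.

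Over the 5 lists, 74 of 90 genes were tested. Of these, 4 were called between pXEN and XEN lines, all lower in pXEN lines. Against ES lines, 30 were called in pXEN lines (22 higher and 8 lower) and 31 in XEN lines (25 higher and 6 lower). Of all tested genes, 4.55%, 35.9% and 38.4% were called in these comparisons. Counted either way, the shares called against ES lines are near those over all genes. By direction, 73.3% of the list calls were higher in pXEN and 80.6% in XEN lines, beside 50.5% and 53.7% of all calls. With upper-quartile scaling the split for pXEN against ES lines was 20 higher and 12 lower. Without pXEN6, 7 were called between pXEN and XEN lines, and without ES2, 18 between XEN and ES lines.

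**Figure D3:**
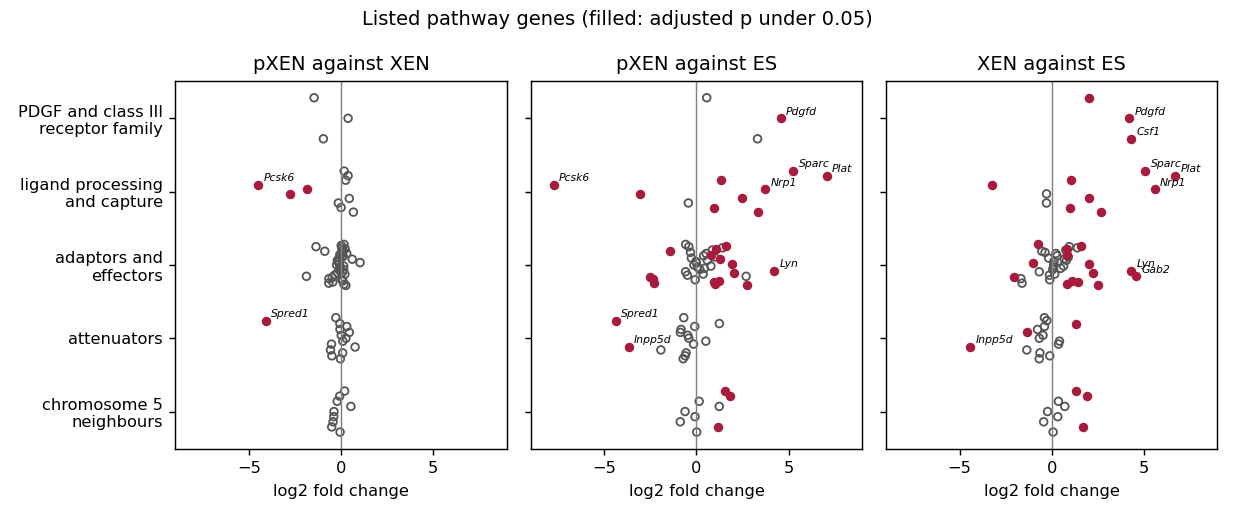
Log2 fold changes of the tested genes of 5 lists in 3 comparisons, with genes spread by name within each list; filled points have an adjusted p under 0.05 and names mark the largest changes. Plat, Sparc, Nrp1 and Lyn lie far right against ES lines, and the genes called between pXEN and XEN lines are few and lie left of 0.

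Along chromosome 5, genes around the receptors were compared because Pdgfra and Kit are neighbours that were high in the same lines. Of 13 neighbours listed over 2441.7 kb, 9 were tested, 0 were called between pXEN and XEN lines by edgeR's test, and against ES lines 3 were higher and 0 lower, both in pXEN and in XEN lines. Counted either way, that is about the share of all tested genes called in these comparisons, 35.9% and 38.4%. Called higher were 18.2% and 20.7% of all tested genes. Between pXEN and XEN lines 1 had an unadjusted p under 0.05, which 15.2% of all tested genes had, and DESeq2 called 0. Chic2, which lies before Pdgfra, had 39.8 ± 4.91 CPM in pXEN lines and 56.9 ± 7.39 CPM in XEN lines (SD, n = 3 each), against 17.4 ± 0.756 CPM in ES lines (SD, n = 2), and was 2.29-fold higher in pXEN and 3.26-fold higher in XEN than in ES lines (adjusted p = 0.00429 and 0.000605). Tmem165, a Golgi membrane protein gene beyond Kit, was 2.89-fold higher in pXEN and 2.54-fold higher in XEN than in ES lines (adjusted p = 0.000992 and 0.00218). Srd5a3, a reductase gene next to it, was 3.50-fold and 3.70-fold higher (adjusted p = 0.00284 and 0.00236). The folds of these neighbours were smaller than those of both receptors. The medians of the tested neighbours were 0.15 for pXEN and 0.36 for XEN against ES lines. Kdr, the class V receptor gene that follows Kit after 276.1 kb, had 2.30, 1.99 and 4.30 CPM in pXEN lines, 1.17, 3.89 and 0.793 CPM in XEN lines and 0.822 and 1.56 CPM in ES lines, ranges that overlap for XEN and ES lines but not for pXEN and ES lines.

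**Figure D4:**
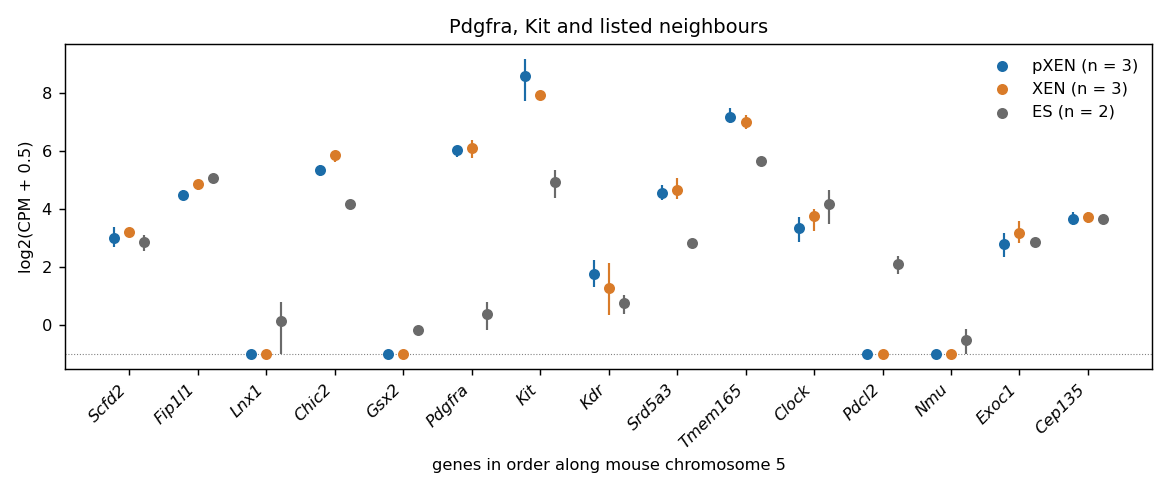
Levels of Pdgfra, Kit and 13 listed neighbours in 3 mouse groups, in their order along chromosome 5. Points are log2 of the group mean CPM plus 0.5, vertical lines span the lowest to the highest line, and the dotted line marks 0 CPM. Pdgfra and Kit stand farther above ES lines than Chic2, Srd5a3 and Tmem165 do.

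Likeness across the 8 mouse lines was measured as the root mean square difference of centred log2 CPM, among 8703 genes. The genes most like Pdgfra were App, at 0.23 log2 units, Kdelr3 (0.31), Flrt3 (0.35), Dram1 (0.36) and Spns2 (0.36). App averaged 311 CPM in pXEN lines, 279 CPM in XEN lines and 5.45 CPM in ES lines. Most like Kit were B4galt1, at 0.29, Man1a2 (0.30), Qsox1 (0.30), Ckap4 (0.31) and Tmem9b (0.32). Ckap4 averaged 683 CPM in pXEN lines, 538 CPM in XEN lines and 46.7 CPM in ES lines.

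For the ligands, the genes most like Pdgfa were Ddx58, at 0.20, Mycl (0.32), Kat6b (0.33), Gltscr1l (0.33) and Gsta4 (0.37). Those most like Pdgfc were Trps1 (0.30), Pcsk6 (0.37), Nav2 (0.43), Acer2 (0.44) and Ltbp4 (0.46). Several of these genes were near 0. Ddx58 averaged 0.191 CPM in pXEN and 0.839 CPM in XEN lines, where Pdgfa averaged 2.26 and 4.06 CPM. Trps1 and Nav2 averaged 0 CPM and Pcsk6 0.110 CPM in pXEN lines. A count of 2 was added before the log, which draws such low levels together and makes their distances small. The nearest to Kitl were Dennd2a (0.44), Rhob (0.51), Hmga2 (0.56), Sh3bgrl (0.63) and Prtg (0.64), which are farther off than the nearest of any other member. Each of the first 4 of these was highest in XEN lines, with 9.87 CPM of Dennd2a in pXEN lines, 31.1 CPM in XEN lines and 13.3 CPM in ES lines.

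In rat XENP lines both receptors and the ligand of Kit were abundant while Pdgfa, Pdgfb and Pdgfc were nearly absent. Pdgfra had 240, 554, 515 and 604 CPM and Kit 111, 414, 428 and 257 CPM in CX1, MAX2, MAX3 and MAX8. CX1 was the lowest for both receptors, and it was also the line of the highest passage, 38 and 40. For Kit, both WKY lines, CX1 and MAX8, lay below both F344 lines, while for Pdgfra MAX8 was the highest. In CX1 the 9 endoderm markers listed in the rat table summed to 20111 CPM, against 34766 to 39175 CPM in the MAX lines. Of 5 ES markers there, the sum was 164 CPM in CX1, 163 CPM of it from Pou5f1, against 6.25 to 8.32 CPM in the MAX lines, and Nanog and Sox2 were at 0 in all 4 lines. The part of passage, of strain, of sex or of these markers in the receptor levels was not tested. Kitlg had 185, 169, 215 and 174 CPM in the same order, so that CX1 lay within the other lines there. The means were 478 ± 163 CPM for Pdgfra, 302 ± 149 CPM for Kit and 186 ± 20.5 CPM for Kitlg (SD, n = 4), and without CX1 the means of Pdgfra and Kit were 558 and 366 CPM. Pdgfa had 1, 1, 1 and 0 counts, and Pdgfb and Pdgfc had none in any line, which allows a level of up to 0.668 CPM over the 4 lines. Pdgfd had 16, 15, 9 and 1 counts and was the PDGF ligand gene with most counts, and Pdgfrb had 1 count in CX1 and none in the other lines.

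The mouse and rat tables were made against different genomes, and multimapping reads took 65.5% to 70.1% of rat and 7.84% to 9.65% of mouse reads, so the species were set side by side without a test, in CPM over 14387 symbols found in both tables. Rn45s was left out of the totals of this scale. On this scale Pdgfra was 247 to 621 in rat XENP lines, 99.1 to 125 in pXEN lines, 96.7 to 150 in XEN lines and 0.684 to 2.16 in ES lines, with every rat line above every mouse line. Kitlg was 174 to 220 in rat lines, and Kitl was 2.04 to 44.4 in pXEN lines, 33.5 to 68.8 in XEN lines and 19.8 to 20.9 in ES lines, again with all rat lines above all mouse lines. Kit was 114 to 439 in rat lines, 368 to 1030 in pXEN lines and 404 to 463 in XEN lines, with CX1 and MAX8 below every pXEN and XEN line and MAX2 and MAX3 within their ranges. The place of MAX8 depends on the scale. In the CPM given earlier, where Rn45s stayed in, Kit had 257 CPM in MAX8, 208 CPM in pXEN2, 251 CPM in XEN2 and 223 CPM in XEN5. The count of Kit divided by that of Pdgfra was 0.463, 0.748, 0.831 and 0.425 in CX1, MAX2, MAX3 and MAX8, below 1 in all 4 rat lines and above it in all pXEN and XEN lines.

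**Figure D5:**
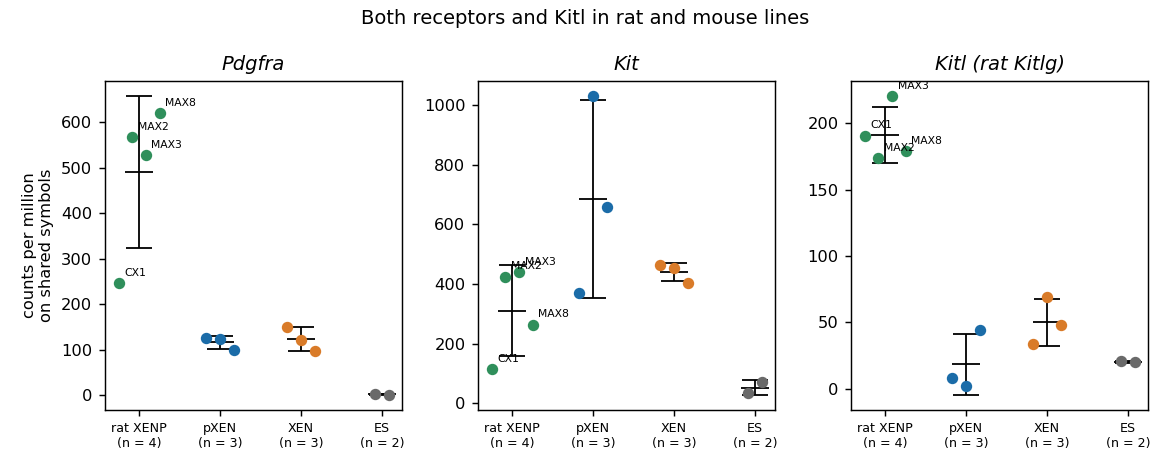
Pdgfra, Kit and Kitl (Kitlg in rat) in CPM over the symbols shared by the mouse and rat tables except Rn45s, on linear axes that differ between panels. Points are lines, and bars give the group mean and SD. The 4 rat lines lie above all mouse lines for Pdgfra and Kitl and, for Kit, at or below the levels of pXEN and XEN lines.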

How the data were processed

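Per the file headers and values, the deposited tables, 1 for each line, hold counts of reads per gene as whole numbers, unstranded and for either strand. The submitters' processing notes name CASAVA 1.8.2, Trimmomatic 0.33, STAR 2.5.1, DESeq2, mm10 and rn6. Which annotation the authors counted on is not stated in the sources used here. Counts of the reverse strand were taken, which held 98.9% to 99.3% of stranded counts in mouse lines. Read classes that name no gene held 73.4% to 78.3% of mouse and 89.7% to 91.8% of rat reads and were left out. Rn45s held 20.7% to 50.1% of mouse gene counts and stayed in, except on the scale shared by mouse and rat lines.

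The 8 mouse lines were fitted together with edgeR 4.0.16 in R 4.3.3 (TMM, filterByExpr with a minimum count of 10, robust glmQLFit, glmQLFTest), over 10895 genes. Genes were called at a Benjamini-Hochberg adjusted p under 0.05. P-values measure the spread between separately derived lines. Replicates differed by more than sampling noise. The code was tested on simulated data. Rat lines were described without a test. Exon lengths and positions are from GENCODE vM21 (23376 of 24411 mouse symbols matched) and promoters from RefSeq.

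Groups are those of the titles and cell types. The members and lists were chosen with earlier results of these data known. From each list and comparison, up to 2 called genes with the largest and up to 2 with the smallest fold change are named (mean of at least 5 CPM in the higher group), all where 5 or fewer were called, and the 5 genes most like each tested member, among genes with at least 10 CPM in a group. Alternatives were RLE and upper-quartile scaling, no filter, DESeq2 1.42.0, unstranded counts, removal of Rn45s, sex as a covariate, fits of 2 groups, and leaving out each line.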

Additional observations from a re-analysis of the deposited data

Results flagged for a closer look

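Pdgfa in the 4 rat XENP lines had 1 line apart from the others, MAX8, whose gap to the nearest line was 0.843 of the whole range, above Dixon's critical value at 95% for 4 samples. The counts were 1, 1 and 1 in CX1, MAX2 and MAX3 and 0 in MAX8, so the gap is that of a single count. Chance alone flags about 1 in 20 groups of normally distributed values, a rate that does not hold for single counts such as these.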

How the results depend on the processing

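Pdgfra, Kit, Pdgfa and Pdgfc kept their calls and directions in both comparisons with ES lines in all 16 alternatives. The call of Pdgfc between pXEN and XEN lines held in the 15 that gave a value (adjusted p up to 0.0329); with only these 2 groups fitted it gave none, since it did not pass the filter on low counts. Pdgfra, Kit and Pdgfa stayed uncalled between pXEN and XEN lines in all 16. Kitl passed the threshold for XEN against ES lines with 2 groups only (log2 1.26, adjusted p = 0.0262), and the cause was not tested. With 1 line left out, its log2 fold change ranged from -3.29 to -0.91 for pXEN against XEN, from -2.03 to 0.35 for pXEN against ES and from 0.96 to 1.47 for XEN against ES lines, and both lowest values are those without pXEN6. The calls of the pathway lists between pXEN and XEN lines numbered 2 with 2 groups only, against 4, and 3 to 7 with 1 line left out, 7 without pXEN6. Between XEN and ES lines they numbered 18 to 35, 18 without ES2. Over all genes, leaving out 1 line gave 322 to 451 calls for pXEN against XEN lines (496 with all lines, 322 without pXEN2), 2543 to 4009 for pXEN against ES lines (3914, 2543 without ES2) and 2474 to 4358 for XEN against ES lines (4188, 2474 without ES2 and 2725 without ES3). Of 222 tests of listed genes, 48 changed a call in at least 1 alternative, with 91 calls lost, 36 gained and 0 reversed. Upper-quartile scaling shifted the median of all genes by -0.11 for pXEN and -0.11 for XEN against ES lines on the log2 scale. No paired analysis was possible because the lines were each derived separately, and the mouse groups share no more than 1 replicate number. A few counts per line limit Pdgfb and Pdgfc in pXEN and rat lines and Pdgfa in rat lines, and 2 ES lines limit every comparison with them.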

Other observations

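The pXEN6 line stood apart from pXEN2 and pXEN4 for several genes besides Kitl, all picked after their values were seen. Csf1 had 22.7 CPM in pXEN6 and 7.90 and 0.285 CPM in pXEN2 and pXEN4, Pdgfrb 7.46 CPM against 3.29 and 3.42 CPM and Fyn 6.03 CPM against 0.987 and 0.285 CPM. Gab1 went the other way, at 10.6 CPM in pXEN6 against 62.8 and 56.1 CPM in pXEN2 and pXEN4. Without pXEN6, Pdgfrb was called lower in pXEN than in XEN lines by edgeR's test (adjusted p = 0.0322).

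Of 9 listed genes of blood and endothelium, Cdh5 and Tek were abundant in mouse pXEN and XEN lines. Cdh5, which encodes an adherens junction protein of endothelium, had 255, 1308 and 724 counts in pXEN2, pXEN4 and pXEN6 and 221, 40 and 305 counts in XEN1, XEN2 and XEN5, against 1 and 0 counts in ES2 and ES3. It was higher in pXEN than in ES lines (adjusted p = 0.00476) and in XEN than in ES lines (adjusted p = 0.0130), and not called between pXEN and XEN lines (adjusted p = 0.322). Tek, the angiopoietin receptor, was 6.73-fold higher in pXEN lines (65.9 ± 35.4 CPM, n = 3, against 9.74 ± 3.31 CPM in ES lines, n = 2, SD, adjusted p = 0.00489) and 8.97-fold higher in XEN lines (adjusted p = 0.00266). Cd34 and Pecam1, other genes of endothelium, were at 0 in all 3 pXEN lines. In the rat lines, which also carried Kit, Cdh5 was at 2.86 to 14.3 CPM and Pecam1 at 43.9 to 238 CPM.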
